A study of Mus musculus with 24 samples.

Results

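The comparison set 6 arrays of mouse embryonic stem cells carrying a long CAG repeat in the huntingtin gene (the Q91 and Q111 lines) against 6 arrays of cells carrying a shorter one (the Q20 and Q50 lines), as a single step. These 12 arrays of 24, chosen by the line named in their titles, are the knock-in arm of the series. In each knock-in line the other Htt allele held 7 repeats. The longer allele held 16 repeats in Q20, 45 in Q50 (43 in Q50 replicate 3), 85 in Q91 and 111 in Q111. The names Q20, Q50 and Q91 therefore do not give the repeat counts of their lines. Each line was represented by 3 biological replicates. The other 12 arrays, not part of the groups compared, were 6 controls with 7 repeats on both alleles and 6 Hdh knock-out arrays with a null genotype; Hdh is the older name of Htt. They entered the filter, the choice of each gene's probe set, 1 alternative fit and the quantile normalization used for another. All 24 samples were of strain 129/Sv, and undifferentiated. The free-text description of the samples exchanges the control and knock-out groups, and the titles, which match the group and genotype fields, were followed. Each repeat length exists here as 1 cell line, so repeat length and line cannot be told apart, and the labels used here do not say if the replicates of a line were separate clones. The p-values therefore measure the spread between these arrays.

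Htt encodes huntingtin, a large scaffold protein that binds motor, trafficking and transcription proteins. Its first exon carries a CAG repeat read as polyglutamine, and expansion of this repeat past a threshold causes Huntington's disease, with longer repeats giving earlier onset. Embryonic stem cells express huntingtin and divide without it, which makes them a cell in which both loss and expansion can be followed outside neurons.

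The values were deposited log2 expression values from an Affymetrix mouse genome array, on which most genes are read by 1 or several probe sets, each a group of short probes near the 3′ end of a transcript. A probe set was tested where it reached log2 5 on at least 3 of the 24 arrays, which left 17980 of 45037 probe sets (39.9%) and 9511 genes. All 10 stem cell markers checked, among them Pou5f1, Nanog and Sox2, exceeded 5 on all 12 arrays, with a mean of 12.87 to 13.55 in the short lines and 12.86 to 13.44 in the long ones. Of 10 markers of feeder fibroblasts, 5 (Col3a1, Dcn, Lum, Postn and Fap) stayed under 5 on all 12 arrays. Col1a1 averaged 7.98 in Q20, 7.48 in Q91 and 8.40 in Q111 but 4.02 in Q50, and Mmp2 7.18, 6.60 and 7.75 but 5.79. The mean of all 10 was 3.22 to 4.32 in the short lines and 3.67 to 4.63 in the long ones, and the part of such cells in the results was not tested. The gap between 3′ and 5′ probe sets of Actb, which widens with RNA breakdown, was 0.84 to 1.54 in the short lines, with Q50 replicate 3 at the top, and 0.79 to 0.94 in the long ones. Genes of chromosomes 1, 8 and 11 shifted together on some arrays, also within 1 line, as given below, and none of the genes called lies on them.

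Few transcripts separated the long from the short lines. The limma fit called 34 probe sets at an adjusted p of at most 0.05, 0.189% of those tested, with 11 higher (0.0612%) and 23 lower (0.128%) in the long lines. On the probe set with the highest mean signal of each gene, 15 genes were called (0.158%), 6 higher (0.0631%) and 9 lower (0.0946%). At an unadjusted p under 0.05 there were 1202 probe sets (6.69%) and 649 genes (6.82%), 277 higher (2.91%) and 372 lower (3.91%). The fit treated each line as a random block. With the replicate number added as a block, 17 of the 34 stayed called, though the labels do not pair arrays by that number. The calls of Snapc1, Utp14a, Vcpkmt, 3110040N11Rik, Pop4, Spc25, Noc3l and Dctn5 were then lost. When each line was reduced to its mean, so that 2 lines faced 2, limma called 0 probe sets, with 815 at an unadjusted p under 0.05. Left out one at a time, Q91 replicate 1 lowered the number of calls to 13, and leaving out a whole line gave 334 calls without Q20, 23 without Q50, 11 without Q91 and 10 without Q111. Of the 15 called genes, only Gm6958 stayed called whichever line was left out.

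The largest fall was in Gm6958, a predicted protein-coding gene of chromosome 16 with no described role, and the neighbouring X-linked genes Zdhhc9 and Utp14a were both called higher. Their promoters are shown because these are the gene with the greatest difference and the only adjacent genes both called on their brightest probe sets. Each stretch runs 250 bases before to 50 after the gene's start as RefSeq places it in GRCm38.p6, read 5′ to 3′ along the gene, with every CG dinucleotide in capitals.

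Gm6958, chr16:55961065-55961364, plus strand: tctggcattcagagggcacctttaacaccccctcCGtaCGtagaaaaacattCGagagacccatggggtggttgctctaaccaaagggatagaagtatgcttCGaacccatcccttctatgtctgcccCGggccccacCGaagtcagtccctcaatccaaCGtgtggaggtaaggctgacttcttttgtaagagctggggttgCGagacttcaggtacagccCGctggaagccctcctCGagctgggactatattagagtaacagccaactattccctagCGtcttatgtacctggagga

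Zdhhc9, chrX:48208653-48208952, minus strand: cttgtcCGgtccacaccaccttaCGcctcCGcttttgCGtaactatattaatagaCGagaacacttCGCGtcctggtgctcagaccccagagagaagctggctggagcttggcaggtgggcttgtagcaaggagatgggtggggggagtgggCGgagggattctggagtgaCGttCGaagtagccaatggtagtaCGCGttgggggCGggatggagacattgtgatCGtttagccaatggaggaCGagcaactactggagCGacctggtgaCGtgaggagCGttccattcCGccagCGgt

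Utp14a, chrX:48256684-48256983, plus strand: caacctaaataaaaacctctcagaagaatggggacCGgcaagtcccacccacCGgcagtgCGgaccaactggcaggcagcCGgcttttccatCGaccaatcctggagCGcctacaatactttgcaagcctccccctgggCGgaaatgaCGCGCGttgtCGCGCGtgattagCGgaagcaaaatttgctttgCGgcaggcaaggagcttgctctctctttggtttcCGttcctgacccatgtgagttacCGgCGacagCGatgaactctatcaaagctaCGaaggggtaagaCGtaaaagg

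The promoter of Gm6958 holds 11 CG dinucleotides, a number reached by 41.4% of 32851 RefSeq promoters of the same length. That of Zdhhc9 holds 20 (26.5%) and that of Utp14a 21 (24.8%), against a median of 7 over all promoters. The motifs ACGTG and GCGTG, counted together on both strands, are the core letters bound by hypoxia-inducible factors, 1 of whose subunits is the product of the called gene Epas1. They occur 1 time in each of the 3 promoters, and 43.8% of all promoters hold at least 1; ACGTG is also part of CACGTG, the motif of MYC and related factors. Of the 26 genes with a called probe set, 21 have a promoter in the RefSeq table.

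Gm6958 was bright in every array without a long repeat and dim in every array with one. Its main probe set read 11.57 at the lowest, 11.76 at the median and 12.61 at the highest in the short lines, and 4.95, 6.33 and 6.45 in the long lines. The 6 controls lay between 11.23 and 12.59 and the 6 knock-out arrays between 11.46 and 12.11, so every array without a long repeat lay above every long array. The difference was -5.92 (SE 0.30, adjusted p = 1.40e-06), a 60.4-fold lower signal. A second probe set of the same gene went from 11.41 ± 0.51 (SD, n = 6) to 7.14 ± 0.28 (SD, n = 6), a difference of -4.27 (adjusted p = 2.23e-06); its name carries the suffix that marks probes able to bind related transcripts as well. The nearest measured genes on either side, Cep97 (0.11) and Zbtb11 (-0.12), were not called.

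Epas1, which encodes the oxygen-regulated transcription factor HIF-2alpha, fell on both of its probe sets. On the brighter one the short lines held 9.48, 9.89 and 10.95 (lowest, median and highest) and the long lines 7.19, 7.64 and 8.32. Controls (9.87 to 10.79) and knock-outs (10.42 to 11.41) were on the side of the short lines. The difference was -2.33 (SE 0.29, adjusted p = 0.00432), or 5.03-fold lower, and the other probe set gave -2.38 (SE 0.34, adjusted p = 0.0104). No short array overlapped a long one on either probe set. Without line Q111 the brighter one was not called (adjusted p = 0.122). Of 19 tested hypoxia response genes, 0 were called, beside 0.158% of all genes. At that share, a list of 19 with 0 called says little. Their median difference was 0.13 beside -0.02 over all genes.

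Zdhhc9, the catalytic part of a palmitoyltransferase that lipidates Ras proteins, gave the greatest rise. Its signal was 4.28, 6.00 and 6.77 in the short lines and 7.98, 8.39 and 8.77 in the long lines. The short lines themselves were uneven, with a mean of 6.54 in Q20 and 5.13 in Q50, while Q91 and Q111 stood close at 8.43 and 8.35. The rise of 2.56 (SE 0.37, adjusted p = 0.0117) made the long lines 5.89-fold brighter, and controls lay at 4.24 to 5.77. Without Q91 replicate 1 the adjusted p was 0.0542. Utp14a, a nucleolar factor of small ribosomal subunit assembly and the next measured gene on the X chromosome, went from 10.14 ± 0.18 to 11.01 ± 0.26 (SD, n = 6 each), a rise of 0.86 (SE 0.14, adjusted p = 0.0312). Its second probe set differed by 1.15 with overlapping arrays (adjusted p = 0.0991). The Utp14a call was the least steady of the 15: leaving out 7 of the 12 arrays one at a time (Q20 replicates 2 and 3, Q50 replicates 1 and 2, Q91 replicate 1, Q111 replicates 1 and 2) raised the adjusted p to between 0.0506 and 0.129. The genes flanking the pair, Ocrl (-0.17) and Aifm1 (-0.10), were not called.

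**Figure D1:**
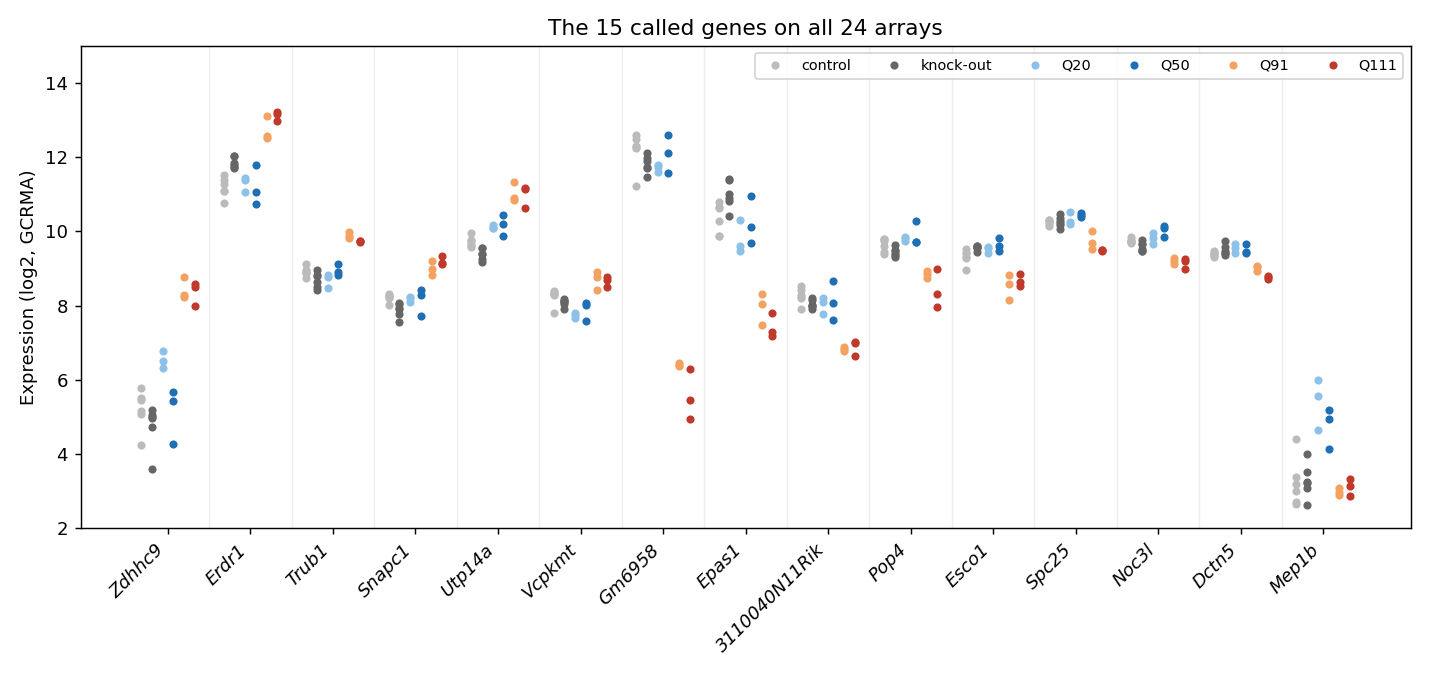
Expression (log2) of the 15 called genes on each of the 24 arrays, 1 point per array, coloured by group (6 controls, 6 knock-outs, 3 arrays of each knock-in line). Long-line arrays lie apart from all short-line arrays in every gene, and Gm6958 drops from above 11 to below 7; in Mep1b the control mean sits with the long lines.

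Erdr1, which lies at the end of the X chromosome, is annotated by RefSeq as a transcribed pseudogene and is known as an erythroid differentiation regulator. It read 10.75, 11.23 and 11.79 in the short lines and 12.52, 13.05 and 13.21 in the long lines, a rise of 1.68 (SE 0.20, adjusted p = 0.00422). Its only tested probe set may also bind related copies, so which copy rose is uncertain. Trub1, a pseudouridine synthase that modifies transfer RNA, read 8.47, 8.83 and 9.12 against 9.71, 9.78 and 9.99, a rise of 0.99 (SE 0.11, adjusted p = 0.00308). The arrays were apart, and the call held whichever of the 12 arrays was left out. The Trub1 call was lost without line Q91 (adjusted p = 0.115) or line Q111 (adjusted p = 0.0589). That of Erdr1 was lost without line Q111 (adjusted p = 0.122).

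Snapc1 and Vcpkmt lie on chromosome 12. Snapc1, a subunit of the complex that starts transcription of small nuclear RNA genes, read 7.72, 8.21 and 8.43 in the short lines and 8.83, 9.13 and 9.34 in the long lines (rise of 0.94, SE 0.14, adjusted p = 0.0128). Vcpkmt, which methylates the segregase VCP, read 7.58, 7.78 and 8.07 against 8.41, 8.74 and 8.91 (rise of 0.86, SE 0.13, adjusted p = 0.0128). It is the 1 gene among the rises whose control mean was not nearer the short mean: at 8.25 it lay about midway between 7.82 and 8.68. All its controls, at 8.40 or less, lay below every long array, at 8.41 or more. Without Q91 replicate 1 both calls were lost, each at an adjusted p of 0.0681.

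Among the falls, Pop4 and Noc3l encode proteins of RNA processing. Pop4, a subunit of ribonuclease P, read 9.72, 9.77 and 10.29 in the short lines and 7.96, 8.81 and 8.98 in the long lines, and fell by 1.21 (SE 0.20, adjusted p = 0.0241). Noc3l, a nucleolar factor of large ribosomal subunit assembly, read 9.67, 9.91 and 10.15 against 8.99, 9.20 and 9.29, and fell by 0.75 (SE 0.11, adjusted p = 0.0104). Its other tested probe set gave -0.37 with overlapping arrays (adjusted p = 0.759). The controls of both genes stayed above every long array. For Pop4, leaving out Q20 replicate 3, Q50 replicate 1, Q50 replicate 2, Q91 replicate 1 or Q111 replicate 1 gave adjusted p-values of 0.0501 to 0.0749, and for Noc3l leaving out Q91 replicate 1 gave 0.0510.

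Esco1 and Spc25 act on chromosomes in division. Esco1, which acetylates cohesin, read 9.42, 9.57 and 9.83 in the short lines and 8.14, 8.62 and 8.86 in the long lines, and fell by 0.98 (SE 0.14, adjusted p = 0.0104), while its other tested probe set gave 0.06 with an adjusted p of 0.984. Spc25, part of the kinetochore complex that holds microtubules, read 10.20, 10.42 and 10.52 against 9.47, 9.52 and 10.02, and fell by 0.77 (SE 0.12, adjusted p = 0.0202). Q91 replicate 3, at 10.02, was the long array of Spc25 nearest the short lines. Leaving out Q50 replicate 1 or 2, Q91 replicate 1, or Q111 replicate 2 or 3 took the adjusted p of Spc25 to between 0.0562 and 0.0978.

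The fall of Dctn5 was the smallest of the 15 differences. Dctn5, a subunit of dynactin, the cofactor of the dynein motor that also binds huntingtin-associated protein 1, read 9.41, 9.50 and 9.67 in the short lines and 8.73, 8.87 and 9.07 in the long lines. It fell by 0.63 (SE 0.10, adjusted p = 0.0236), and its second probe set gave -0.56 with overlapping arrays (adjusted p = 0.620). Leaving out Q20 replicate 3, Q50 replicate 2, Q91 replicate 1 or any of the 3 Q111 arrays raised the adjusted p to between 0.0501 and 0.0743. The uncharacterised 3110040N11Rik read 7.62, 8.09 and 8.67 against 6.65, 6.85 and 7.01, and fell by 1.22 (SE 0.17, adjusted p = 0.0104; 0.0620 without Q91 replicate 1).

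Mep1b, a secreted and membrane-bound metalloprotease of kidney and gut, went the other way with respect to the controls. The short lines read 4.14, 5.06 and 6.00 and the long lines 2.88, 3.02 and 3.34, a fall by 2.02 (SE 0.28, adjusted p = 0.0104). Controls lay at 2.66 to 4.40 and knock-outs at 2.64 to 4.01, with means of 3.23 and 3.29 beside the long mean of 3.06. Mep1b passed the filter through short arrays alone (5.57 and 6.00 in Q20, 5.18 in Q50). All these levels are near the floor of the signal: with values under 5 set to 5, the difference was -0.29 (adjusted p = 0.735), and without Q91 replicate 1 the adjusted p was 0.0542.

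The controls and knock-outs were not in the fit that called the 34 probe sets, though they counted in the filter on low values. The control mean was nearer the short mean for 32 of 34 probe sets. The exceptions were Mep1b, and Vcpkmt with a control mean about midway. The knock-out mean was also nearer the short mean for 32, the exceptions being Mep1b and 1 probe set of Exosc1. With the filter on the 12 knock-in arrays alone, 33 of the 34 were called, 31 of them with the control mean nearer the short lines. For 31 probe sets all 6 controls lay beyond all 6 long arrays on the side of the short lines. For 5 probe sets all 6 controls lay outside the range of the short arrays. None of these counts was made over all probe sets tested, so no background share stands beside them. The order of the 4 line means followed the order of repeat length for 4 of the 34. These 4 were probe sets of Riok3, Rpap2, Dctn5 and Resf1. Since the classes were apart in all 34, only the order within each class was free, and some would follow repeat length by arrangement alone. The count is therefore no sign of grading with repeat length. Of the 34, 18 changed at least 2-fold, and 6 had a class mean under 5.

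**Figure D2:**
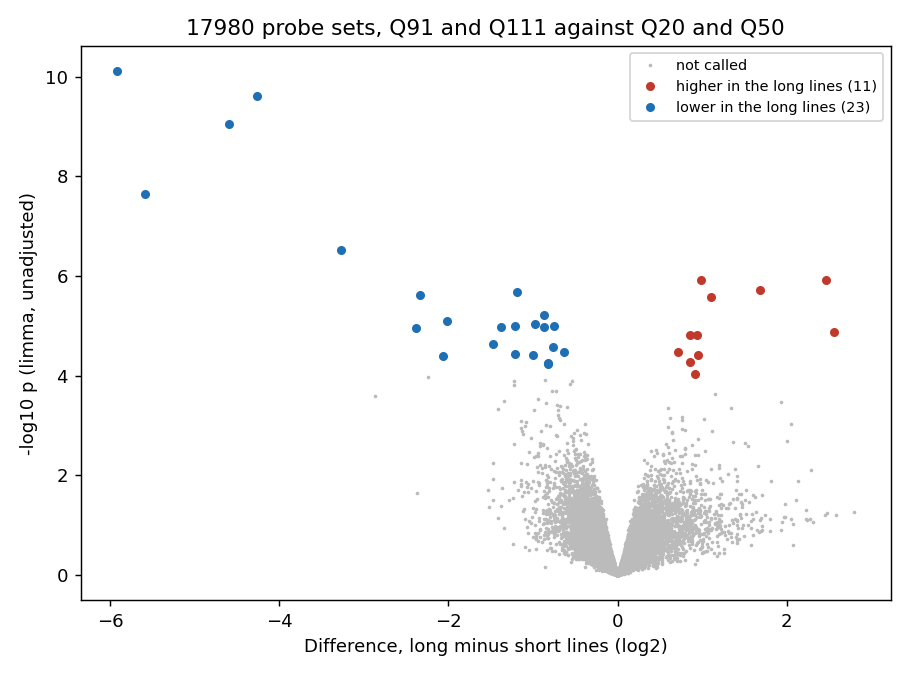
Each of 17980 probe sets by its log2 difference, long minus short lines, and by the -log10 of its unadjusted limma p. The 11 called higher and 23 called lower are coloured; the points of Gm6958 and Prune2 stand far to the left at the top.

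For many of the genes, the probe sets of 1 gene gave different answers. The 28 called probe sets named by a single gene belong to 26 genes, of which 17 have over 1 tested probe set and 9 have 1. In 2 of the 17, Gm6958 and Epas1, over 1 probe set was called. In 11 of the 17, no other tested probe set reached 50% of the called difference. The next genes lie outside the naming rule, because another probe set had the higher mean over all arrays. They were chosen after their values were seen.

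Prune2 encodes a large protein with a BCH domain, expressed mainly in nerve tissue. Its called probe set read 8.20, 8.52 and 9.07 in the short lines and 3.51, 3.73 and 4.76 in the long lines (-4.59, SE 0.28, adjusted p = 5.37e-06), with controls at 8.77 to 9.33. With values under 5 set to 5 this difference was -3.59. The probe set standing for Prune2, chosen by its mean over all arrays, averaged 7.69 in the short and 7.81 in the long lines. Its difference was 0.12 (95% interval -0.68 to 0.92, adjusted p = 0.961). It was dimmer than the called one in Q20 (7.2 against 8.32), Q50 (8.19 against 8.87), controls (8.23 against 9.14) and knock-outs (7.87 against 8.98). It was brighter only in Q91 (8.29 against 4.35) and Q111 (7.34 against 3.66). The choice between them thus drew on the arrays in which the called one was low. The interval of the second probe set lies far from the difference of the first.

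Riok3, an atypical kinase of ribosome assembly, gave a called difference of -3.27 (SE 0.33, adjusted p = 0.00108), from 8.52 ± 0.35 to 5.24 ± 0.72 (SD, n = 6 each). The 2 other tested probe sets of Riok3 gave -0.10 and 0.32. Nup62, a nuclear pore protein rich in FG repeats, was called at -2.06 (adjusted p = 0.0241) on a dim probe set that went from 5.14 to 3.08 (-0.42 with values under 5 set to 5), whereas 4 bright ones, between 11.47 and 12.65 in the short lines, gave -0.10 to 0.07. Rpap2, a phosphatase of the RNA polymerase II tail, went from 4.19 to 2.72 on the called probe set (-0.02 with values under 5 set to 5) and differed by -0.34 on the other. Hsd17b11, a steroid dehydrogenase of lipid droplets, gave -1.37 (adjusted p = 0.0104) on 1 probe set and -0.30 on the other.

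Smaller differences of the same kind appeared in Phgdh, the first enzyme of serine synthesis, with -0.87 (adjusted p = 0.0104) on 1 probe set and -0.17 to -0.08 on 3 others. A further called probe set, assigned to both Phgdh and Gm6756, also gave -0.87 (adjusted p = 0.00913). In Nolc1, a nucleolar chaperone, the values were -0.83 (adjusted p = 0.0312) against -0.16 and -0.10. Resf1, a silencer of retroelements, gave -0.99 (adjusted p = 0.0241) against -0.41 to 0.08 on 3 others. Exosc1, a subunit of the RNA exosome, gave -0.82 (adjusted p = 0.0312) against -0.50 and -0.06. Uri1, a prefoldin-like chaperone, gave -1.19 (adjusted p = 0.00425) on 1 probe set and -0.53 and -0.37 on the others, none with the opposite sign. Pdzd8, a lipid transfer protein of the endoplasmic reticulum, gave 0.72 (adjusted p = 0.0236) with 0.50 and 0.61 on the others.

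Of the remaining called probe sets, 5 carry no gene name and 1 is the probe set shared by Phgdh and Gm6756. The largest of these, 1456319_at, went from 7.37 ± 1.11 to 1.78 ± 0.17 (SD, n = 6 each), a difference of -5.59 (SE 0.45, adjusted p = 1.03e-04), with every long array at 2.06 or less and every control at 5.27 or more. Probe set 1418701_at went the other way, from 3.86 ± 0.56 to 6.33 ± 0.43 (2.47, SE 0.28, adjusted p = 0.00308), with controls at 3.11 to 3.87. It passed the filter through the long arrays alone, every other array reading 4.59 or less, so its low controls are not further support. With values under 5 set to 5 the differences were -2.37 and 1.33, so both sizes depend on values near the floor.

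**Figure D3:**
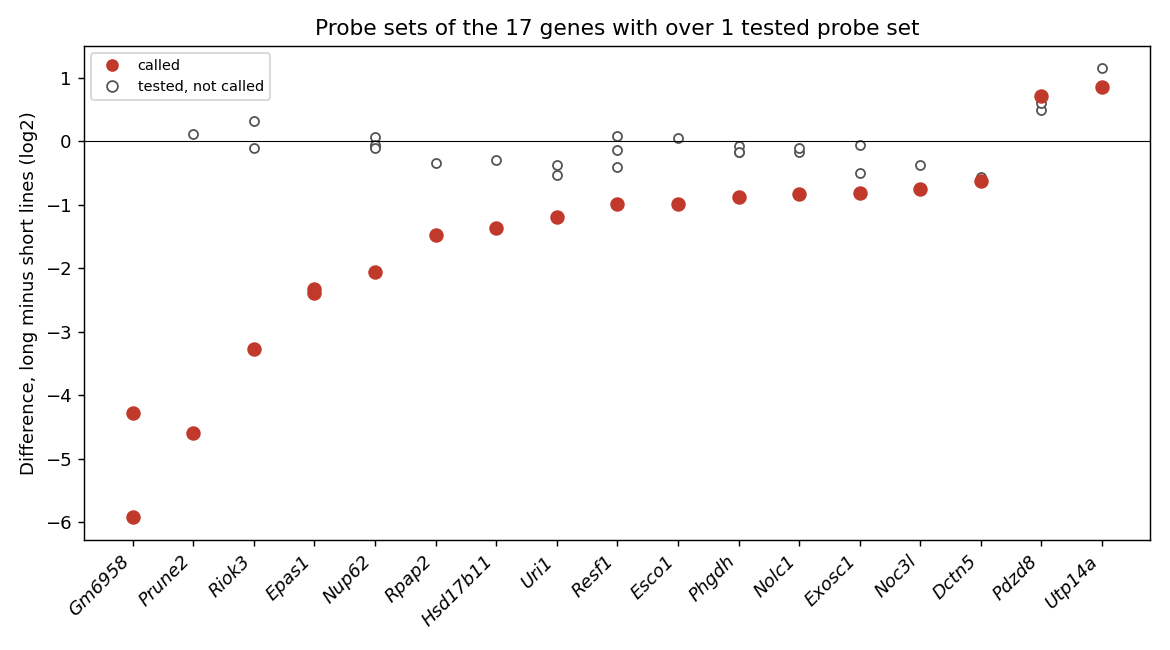
Log2 difference, long minus short lines, of every tested probe set of the 17 genes with a called probe set and over 1 tested probe set. Filled points were called and open points were not; for Prune2, Riok3 and Nup62 the open points lie near 0 while the called one lies at -4.59, -3.27 and -2.06.

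Contrasts between single lines show how far lines of a class differ. Within a class, limma called 1 probe set between Q50 and Q20 (0.00556%) and 2 between Q111 and Q91 (0.0111%). Across classes it called 12 between Q91 and Q20 (0.0667%), 8 between Q111 and Q20 (0.0445%), 16 between Q91 and Q50 (0.0890%) and 275 between Q111 and Q50 (1.53%). Counts at an unadjusted p under 0.05 did not order this way: 2682 for Q50 against Q20 exceeded 1571 for Q91 against Q20 and 604 for Q111 against Q20. The median absolute difference of a probe set was 0.133 between Q111 and Q20 and 0.256 between Q111 and Q50, the smallest and the largest of the 6 pairs, both across classes. Between 7 and 28 of the 34 called probe sets were called in each pair of lines across classes. These contrasts share arrays and use the spread within lines alone.

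A second count needs no model: for 168 probe sets (0.934%) every long array lay beyond every short array, 48 higher (0.267%) and 120 lower (0.667%). On 1 probe set per gene these were 102 genes (1.07%), 33 higher (0.347%) and 69 lower (0.725%). All 34 called probe sets were among the 168.

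The calls were unevenly spread over chromosomes. Of 26 genes with a called probe set (0.274% of 9492 placed genes), 6 lie on chromosome 19 (1.89% of its 317 measured genes), 5 on chromosome 7, 3 on chromosome 18 (1.24% of 241) and 3 on the X (0.938% of 320). The 5 on chromosome 7 were all lower, as were the 3 on chromosome 18, and the 3 on the X were all higher. Of those on the X, Zdhhc9 and Utp14a are adjacent, and the Erdr1 probe set may also bind related copies. No gene of chromosomes 1, 8, 9, 10, 11, 13, 14, 15 or 4 had a called probe set. By genes with non-overlapping arrays, chromosome 18 held 2.90%, chromosome 16 2.67% and chromosome 7 2.11%, beside 1.07% overall. No test was made of these shares.

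Some of these genes lie close together in the order of measured genes. On chromosome 7, Uri1 and Pop4, both with a probe set called lower, are separated by 3 measured genes that were not called (Ccne1 at -0.30, 1600014C10Rik at 0.26 and Plekhf1 at -0.19). Trub1 and Pdzd8, both with a probe set called higher, are adjacent on chromosome 19. On chromosome 18 a run of 11 measured genes from Esco1 to Taf4b held the called Esco1, the called probe set of Riok3, and 3 genes whose arrays did not overlap without a call: Rmc1 (-0.88, adjusted p = 0.422), Psma8 (-1.08, adjusted p = 0.238) and Taf4b (-0.48, adjusted p = 0.291). Between them Mib1, a ubiquitin ligase of Notch signalling, differed by 0.82 (adjusted p = 0.631) with overlapping arrays. The probe set standing for Riok3 differed by 0.32 (adjusted p = 0.735), also with overlap. The ends of this run were set at genes whose arrays were apart in these data, so it was drawn around them. Of the 102 genes with non-overlapping arrays, 8 (7.84%) had an adjacent measured gene of the same kind, beside 2.07% of the other genes.

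Whole-chromosome medians of chromosomes 1, 8 and 11 differed between arrays in ways that cut across repeat class. Chromosome 1 genes had a median of 0.40, 0.44 and 0.52 above the mean of the 12 arrays in Q50 replicate 1, Q91 replicate 1 and Q111 replicate 3, and between -0.19 and -0.06 in the other 9. Chromosome 8 genes were at -0.28 to -0.27 in all 3 Q91 arrays and Q111 replicate 3, at -0.26 in Q20 replicate 3 and -0.17 in Q50 replicate 3, and at 0.22 to 0.31 in the other 6. Chromosome 11 genes were at 0.17 to 0.27 in all Q20 and Q111 arrays and Q91 replicate 1, and at -0.37 to -0.23 in all Q50 arrays and the other 2 of Q91. Each chromosome thus fell into 2 levels that cut across the classes, and arrays of 1 line could sit on different levels. The Y chromosome, with 3 measured genes, ranged more widely: from -3.84 to 0.58 in Q50, -0.77 to 0.80 in Q91, 0.52 to 0.72 in Q20 and 0.72 to 1.75 in Q111.

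As a step, chromosome 8 had a median difference of -0.21 over 541 genes, chromosome 1 of 0.08 over 526 and chromosome 11 of 0.07 over 801, and the other autosomes and the X lay between -0.07 and 0.01. Chromosome 8 also held the most genes at an unadjusted p under 0.05, 72 (13.3%), and chromosome 11 the smallest share, 15 (1.87%), beside 6.82% of all genes. Their part in the smaller differences of single genes was not tested.

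**Figure D4:**
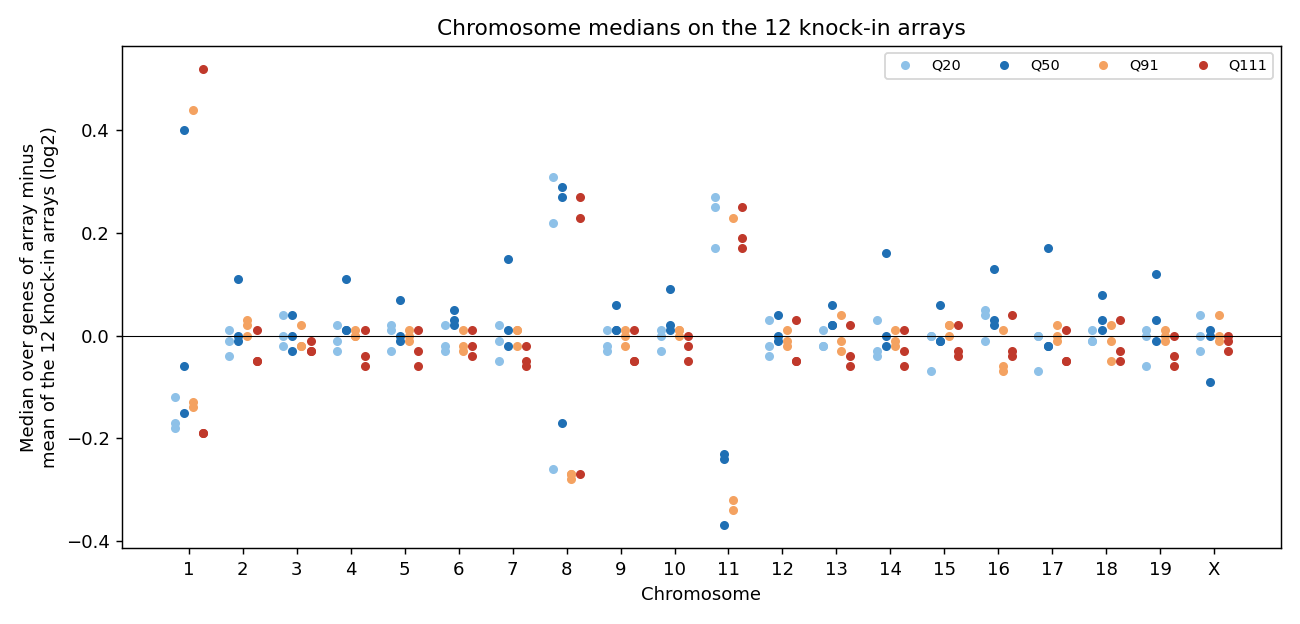
Median over the measured genes of each chromosome of the array's log2 value minus the mean of the 12 knock-in arrays, 1 point per array, for the autosomes and the X. Chromosomes 1, 8 and 11 split into 2 levels that cut across the lines, while most other points lie within 0.1 of 0; the exceptions plotted, up to 0.17, are all from Q50 replicate 3.

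Htt itself was not called. Its brightest probe set read 7.25, 7.43 and 7.69 in the short lines and 6.67, 7.12 and 7.42 in the long lines, which overlapped. The difference was -0.38 (SE 0.17, 95% interval -0.75 to -0.01, adjusted p = 0.744). A second probe set gave -0.50 (SE 0.15, adjusted p = 0.600) with overlap, and another, near the floor, gave -0.36 (SE 0.12, adjusted p = 0.669) with every long array, at 4.84 to 5.35, below every short array, at 5.40 to 5.79. The fourth stayed under 5. On the tested probe sets, in the order given, controls averaged 8.01, 6.39 and 5.83 and knock-outs 7.21, 6.66 and 5.52. The knock-outs, with a null genotype, still gave signal on each, so the differences cannot be read as the level of intact Htt transcript. Where these probe sets lie relative to the repeat was not examined here. Of 8 measured genes of the list of Htt and its neighbours on chromosome 5, 0 were called, beside 0.158% of all genes. The median was -0.11, and Fam193a differed by -0.25 and Lrpap1 by -0.18.

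Among 29 huntingtin-binding proteins 0 were called, beside 0.158% of all genes, with a median of 0.06. Hip1, an endocytic clathrin adaptor first found by its binding to huntingtin, read 6.28 to 6.72 in the short and 6.76 to 7.91 in the long lines, without overlap (0.69, SE 0.19, adjusted p = 0.471). Hip1r, its relative, gave 0.35 (adjusted p = 0.746) and Rhoq 0.47 (adjusted p = 0.751). Of 39 dynein, dynactin and kinesin genes 1 was called, Dctn5, beside 0.158% of all genes, and the median was 0. Kif1a, a motor of synaptic vesicle precursors, differed by 1.54 (SE 0.41, adjusted p = 0.430), with arrays from 5.43 to 7.61 in the short and 7.22 to 8.83 in the long lines.

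Over 40 gene lists, Dctn5 was the only called member, beside 0.158% of all genes called. The lists therefore describe tendencies that did not pass the test. Among the 14 lists described, the greatest median belonged to genes of the primed epiblast, the state after implantation: 0.73 over 17 genes, 16 of them positive, against a median of -0.02 over all genes, of which 46.8% were positive. Pim2, a survival kinase, differed by 1.20 (SE 0.37, adjusted p = 0.620) and Pou3f1, a neural and epiblast POU factor, by 0.78 (adjusted p = 0.712). Naive and core pluripotency genes gave -0.29 over 29 genes, 6 positive. Tcl1, a cofactor of Akt, differed by -0.97 (adjusted p = 0.725) and Zfp42, the stem cell marker Rex1, by -0.34 (adjusted p = 0.744).

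Line by line, these lists were not a step. The median of the primed genes, relative to the mean of the 12 arrays, was -0.71 in Q50 but 0.09 in Q20, 0.30 in Q91 and 0.27 in Q111. For the pluripotency genes Q50 stood at 0.25 and the other 3 lines at -0.12 to -0.06. Pou3f1 shows it by array: 8.33, 9.39 and 8.11 in Q50, but 9.55, 9.33 and 9.78 in Q20, next to 9.68 to 10.02 in the long lines. Without the Q20 line Pim2 (1.94, adjusted p = 0.0122) and Pou3f1 (1.26, adjusted p = 0.0289) were called, as were Tcl1, Rhox6, Col5a1, Col1a1, Zyx, Nt5e and Kif1a (adjusted p = 0.0238 to 0.0459).

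Contractile actin genes and targets of the serum response factor gave a median of 0.61 over 27 genes, 26 positive, and targets of YAP and TEAD 0.50 over 22, 21 positive. In both Q91 was highest (0.51 and 0.48) and Q50 lowest (-0.44 and -0.50), with Q20 at -0.04 and 0.05. Myof, a membrane repair protein among the YAP targets, came nearest to a call: the short arrays read 5.08 to 5.99 and the long arrays 6.22 to 7.28, apart (1.03, SE 0.23, adjusted p = 0.216). With all 24 arrays in the fit its adjusted p was 0.0146. Tagln2, an actin-binding protein, was also apart (0.61, adjusted p = 0.727), with the highest short arrays at 10.47 and the lowest long arrays at 10.49. Zyx, a focal adhesion protein, differed by 1.42 with Q20 arrays of 9.66 and 9.69 inside the long range (adjusted p = 0.735).

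Trophoblast and epithelial genes gave a median of 0.49 over 16, with members on both sides of 0: Krt18, a simple epithelial keratin, differed by 1.46 (adjusted p = 0.758) and Rhox6 by -1.28 (adjusted p = 0.735). Of 30 listed feeder fibroblast markers 11 were tested, all positive with a median of 0.47, and again the median of Q50 was lowest, at -0.79, beside 0.25 to 0.48 in the other lines. Col1a1, a fibrillar collagen chain, read 5.57 to 8.97 in the long lines and 3.54 to 4.53 in Q50, while the Q20 arrays, at 5.97 or above, lay within or beside the long range. Its difference was 1.94 (adjusted p = 0.758), and it was 3.92 without Q20 (adjusted p = 0.0238) and -0.04 without Q50. The tested markers are those that passed the filter, not all 30. Col1a2 passed it through long arrays alone (5.38 in Q91, 5.91 and 5.90 in Q111).

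Cholesterol genes gave a median of 0.29 over 22, 18 positive, with Q111 alone high at 0.34 and the other 3 lines at -0.15 to -0.09. Single members ran from -2.37 to 0.80, so the largest difference of the list was a fall, which was not called. Stard4, a sterol carrier, differed by 0.80 (SE 0.21, adjusted p = 0.448, or 0.0457 with a mean per line in the fit) and Hmgcs1, which makes the precursor of mevalonate, by 0.52 (adjusted p = 0.669). Genes of the integrated stress response and amino acid supply gave -0.16 over 25, 7 positive, with Q91 alone low at -0.29. Atf4, the transcription factor at its head, differed by -0.56 (adjusted p = 0.725) and Trib3 by -0.67 (adjusted p = 0.732). Respiratory chain genes were flat, at -0.03 over 40. Imprinted genes gave 0.14 over 29, and Igf2, a fetal growth factor, read 4.94 to 6.83 in the short and 5.76 to 10.22 in the long lines (2.14, SE 0.74, adjusted p = 0.695).

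**Figure D5:**
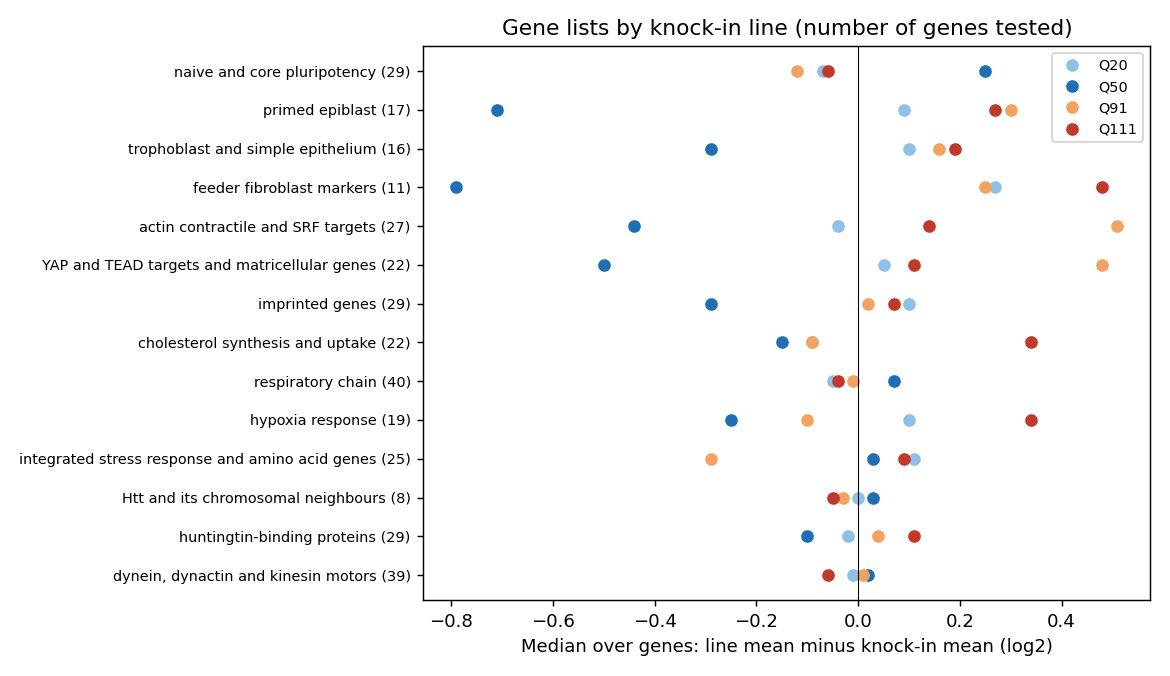
Median over the tested genes of each list of the line mean minus the mean of the 4 lines (log2), 1 point per knock-in line, with the number of genes tested in brackets. Q50 lies at the low end for primed, fibroblast, actin and YAP genes, and Q20 lies with the long lines or between them and Q50.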

How the data were processed

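Total RNA of each of the 24 cultures went onto 1 Affymetrix mouse genome array. The deposited values are log2 expression values computed with GCRMA, per the submitters' processing notes; neither version nor settings are named there, and hybridisation batches were not analysed here. GCRMA subtracts a sequence-dependent background, so values near the floor are compressed and carry little information. Precision is limited by the 6 arrays of each class and by the lines, 4 in all, from which both classes were drawn. Repeat class belongs to the line, so arrays of 1 line are not separate replicates of it. With each line reduced to its mean, limma called 0 probe sets.

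Of 45101 probe sets, 64 controls were left out. A probe set was tested with log2 of at least 5 on at least 3 of 24 arrays. GEO's platform annotation gave 34945 probe sets 1 gene, 932 several and 9160 none; 34741 were matched to RefSeq. A gene was represented by whichever of its probe sets had the highest 24-array mean.

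The 6 long-line arrays were set against the 6 short-line arrays with limma 3.58.1 in R 4.3.3, with line as a random block (consensus correlation 0.0679). P-values were adjusted over all probe sets tested by Benjamini-Hochberg, and every adjusted p comes from limma. Arrays were called apart where every long array lay beyond every short array. The fit was tested on simulated data.

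Genes were named where the representing probe set was called and apart, up to 14 rises and 14 falls, with the 4 members of smallest p for each list described, and Htt. Of 40 lists, 14 are described. Members and lists were chosen with earlier results of these data known. Alternatives changed the block, unit, arrays fitted, scaling, filter and floor, and left out each array and each line.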

Additional observations from a re-analysis of the deposited data

Results flagged for a closer look

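Among 136 sets of 6 values (the short or the long lines of a named gene), 14 (10.3%) held 1 array far from the other 5; chance flags about 1 in 20. In the called genes this occurred for Pop4, where Q50 replicate 3 read 10.29 and the next short array 9.84. In the short lines, Q50 replicate 1 stood apart in Zfp42 (14.95, next 14.62), Sdhc (12.54, next 12.01) and Lrpap1 (11.03, next 11.46), and Q20 replicate 1 in Hip1r (6.70, next 6.25). In the long lines, Q91 replicate 2 stood apart in Krt18 (14.50, next 13.14), Zyx (10.84, next 9.72), Ptpn14 (9.72, next 8.51), Lrpap1 (11.89, next 11.33), Hip1 (7.91, next 7.19) and Kif5c (9.26, next 8.73). Q91 replicate 3 did so in Nt5e (5.37, next 6.79), Q91 replicate 1 in Hmgcs1 (12.88, next 13.35) and Q111 replicate 1 in Hip1r (7.19, next 6.61).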

How the results depend on the processing

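Repeat length and line cannot be told apart, and the calls rest on 2 lines against 2. The 34 called probe sets (11 higher, 23 lower) became 0 with 4 line means, 64 with all 24 arrays in the fit (19 higher, 45 lower) and 50 with a mean per line (14 higher, 36 lower). Without line Q20 there were 334 (167 higher, 167 lower), without Q50 23 (9 higher, 14 lower), without Q91 11 (4 higher, 7 lower) and without Q111 10 (0 higher, 10 lower). Leaving out 1 array gave 13 to 40 calls (4 to 14 higher, 9 to 26 lower). Other scalings, filters, the floor and independent arrays gave 30 to 48. The 168 probe sets with arrays apart became 190 to 324 without 1 array, 1400 without Q20, 604 without Q50, 1070 without Q91 and 545 without Q111; fewer arrays make separation easier. With the replicate number as a block 17 were called (5 higher, 12 lower), all among the 34, and the calls of Snapc1, Utp14a, Vcpkmt, 3110040N11Rik, Pop4, Spc25, Noc3l and Dctn5 were lost. The numbers do not pair the samples by the labels, and 9 of 12 arrays correlated best with an array of their own number. Uncalled Col1a1 turned to -0.04 and Mfsd10 to 0.10 without Q50, and Lrpap1 to 0.03 and Mfsd10 to 0.03 without Q111; the cause was not tested. The Utp14a call was lost with median centring (adjusted p = 0.0677). Values near the floor limit Mep1b, Nup62, Rpap2, 1456319_at and 1418701_at, and the size of the Prune2 difference.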
